A study of Mus musculus with 2 samples.

Results

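The 6 microRNA genes Mir143, Mir214, Mir140, Mir199b, Mir199a-2 and Mir199a-1, known for their expression in mesenchyme, were followed in the midbrain of mouse embryos. They were chosen by gene symbol and are 6 of the 1973 microRNA genes counted. The samples are 2 biological replicates of 1 group, midbrains of healthy B6NCrl embryos of both sexes at embryonic day 10.5. Replicate 2 pooled 51 embryos and replicate 1 pooled 69 embryos, and RNA shorter than 30 nt was sequenced in 1 library per pool. No other tissue, stage or treatment was included, so the data give the level of each gene and how far the pools differ, and no contrast between conditions.

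Mesenchyme is the loose tissue that forms connective tissue, cartilage, bone and the muscle layer of vessels. In the head it comes from cranial neural crest and mesoderm and surrounds the neural tube. Mir199a-2 and Mir214 are made from 1 long noncoding transcript, Dnm3os, which is expressed in embryonic mesenchyme under the transcription factor Twist1 and is needed for normal skeletal development in the mouse. Mir143, with its neighbour Mir145a, is known from smooth muscle and pericytes, the contractile cells around vessels. Mir140 is known from cartilage, where its host gene Wwp2 is driven by Sox9, and mice without it have short skeletal elements and a changed face.

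The 3 mir-199 genes make mature microRNAs that are partly identical, which bears on each of their counts below. The mature sequences, from RefSeq on GRCm38.p6, are shown 5′ to 3′ with the seed (bases 2 to 8, the part that pairs with targets) in capitals, because they show which products the genes share. Matching by symbol gave entries for 5 of the 6 genes. For Mir140 and Mir199b only the 3p arm had an entry, so their 5p arms are not shown.
miR-199a-5p of Mir199a-1 and Mir199a-2: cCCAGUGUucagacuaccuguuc
miR-199a-3p of Mir199a-1 and Mir199a-2: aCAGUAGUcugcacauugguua
miR-199b-3p of Mir199b: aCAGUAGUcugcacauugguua
miR-214-5p of Mir214: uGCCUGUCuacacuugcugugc
miR-214-3p of Mir214: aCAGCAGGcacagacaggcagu
miR-140-3p of Mir140: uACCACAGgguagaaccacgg

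The 3p product is the same 22 bases at 3 loci, and miR-199a-5p is the same 23 bases at 2 loci. In the Mir199b precursor the matching stretch differs from miR-199a-5p by 1 base, C10U, with positions counted from 1 at the 5′ end of miR-199a-5p. The seeds of the 3p products of mir-199 and of Mir214 differ from each other. No other mature mouse microRNA with an entry had the seed of either mir-199 product or of miR-214-5p. The 5p arm of Mir199b had no entry, so this comparison left it out. Its matching stretch holds the same seed bases as miR-199a-5p, because C10U lies outside the seed. The seed of miR-214-3p recurred in miR-761 of Mir761, which had 0 reads in both libraries. That of miR-140-3p recurred in 1 mature microRNA, of Mir497b, which had 1641 reads in replicate 2 and 1659 in replicate 1. Of these, 1637 in replicate 2 and 1659 in replicate 1 stood in the count column read here as antisense.

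The precursors of the 3 mir-199 genes show where a read can be placed at a single locus. Capitals mark bases in stretches of 20 or more that also occur at another annotated microRNA locus. A read that lies wholly within capitals therefore has an exact copy elsewhere, with 1 exception in Mir199b. There, a read from the first capital that runs past the 27 bases shared with Mir199a-2 has no full copy, as Mir199a-1 lacks the first letter.
Mir199b: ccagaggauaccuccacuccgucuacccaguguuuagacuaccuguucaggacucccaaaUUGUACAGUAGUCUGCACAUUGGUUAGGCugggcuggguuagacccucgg
Mir199a-2: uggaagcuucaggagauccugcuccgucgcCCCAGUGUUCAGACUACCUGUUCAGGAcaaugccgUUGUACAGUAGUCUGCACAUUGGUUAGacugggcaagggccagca
Mir199a-1: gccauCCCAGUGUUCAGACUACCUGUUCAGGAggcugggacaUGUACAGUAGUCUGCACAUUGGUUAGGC

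In Mir199a-1 and Mir199a-2 both mature arms lie wholly in shared stretches. In Mir199b this holds for the 3p arm, with 29 shared bases at positions 61 to 89, and no stretch of its 5p side is shared. The precursors of Mir143, Mir214 and Mir140 had no such stretch. The authors' files put reads that map to several places in a row of their own, 29.5% of all reads in replicate 2 and 30.9% in replicate 1, and these reads are in no gene count. Among reads that match exactly, the counts of Mir199a-1 and Mir199a-2 are therefore of those that reach beyond the shared letters. The alignments themselves were not examined. These counts are no measure of how much miR-199a the tissue held.

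**Figure D1:**
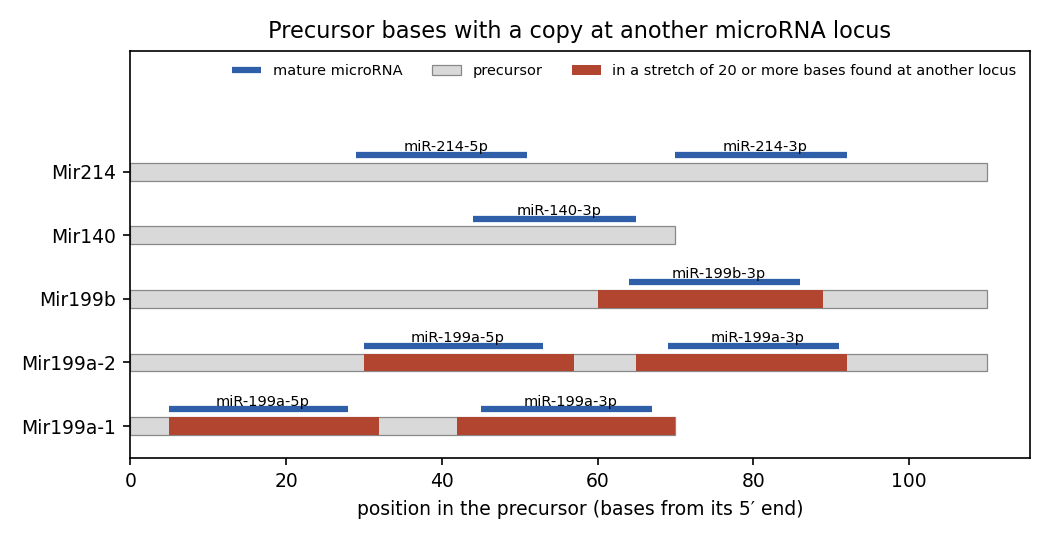
Map of 5 precursors, with position from the 5′ end in bases on the x axis. Grey is the precursor, red the bases in stretches of 20 or more found at another microRNA locus, and blue the mature microRNAs. For Mir140 and Mir199b only the 3p arm had an entry and is drawn. Red underlies both arms of Mir199a-1 and Mir199a-2, the 3p arm of Mir199b and no base of Mir140 or Mir214.

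Depth was 3682410 gene-assigned reads of 9423767 in replicate 2 and 3297835 of 7810040 in replicate 1. Levels are given as CPM, reads per 1000000 gene-assigned reads, and are not divided by length, because a read of fewer than 30 nt covers about a whole mature arm whatever the length of the precursor (63 to 110 bases here). The label midbrain was set against neural microRNAs. Mir92b, known from neural progenitors, had 23299 ± 2904 CPM (SD, n = 2) and the 2 mir-219a genes 5151 ± 606 CPM (Mir219a-2) and 2063 ± 353 CPM (Mir219a-1), both of which share sequence with other loci. The counted Mir9 and Mir124a genes, also neural, each had at most 137 CPM in either library, and all 5 of them also share such sequence.

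Together the 6 genes held 1.35% of the gene-assigned reads in replicate 2 (95% Wilson interval 1.34 to 1.36%) and 1.66% in replicate 1 (1.64 to 1.67%), a mean of 1.51% ± 0.216 (SD, n = 2). Mir143, Mir214 and Mir140 supplied 96.9% of these reads in replicate 2 and 96.7% in replicate 1. The make-up of the set differed by small amounts between the pools. The intervals of Mir143, Mir214 and Mir199a-2 did not overlap between the libraries. Those of Mir140 met only at their ends, and such an overlap does not show that its share was the same. Mir143 was 48.1% of it in replicate 2 (47.7 to 48.6%) and 50.3% in replicate 1 (49.9 to 50.7%), Mir214 26.7% (26.3 to 27.1%) and 24.9% (24.6 to 25.3%) in the same order, and Mir140 22.1% (21.8 to 22.5%) and 21.5% (21.1 to 21.8%). Mir199a-2 was 0.295% (0.251 to 0.347%) in replicate 2 and 0.413% (0.363 to 0.471%) in replicate 1. All intervals here stand for counting error alone, since PCR copies carry no molecular identifiers and are not separate molecules. In bulk tissue, fewer cells of a type and less RNA per cell cannot be told apart.

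Mir143 was the most abundant of the 6. It lies on chromosome 18 (ENSMUSG00000065445.2, chr18:61649196-61649258, mm10, minus strand) and overlaps no other annotated gene. It had 23970 reads in replicate 2 and 27511 in replicate 1, or 6509 CPM and 8342 CPM, a mean of 7426 ± 1296 CPM (SD, n = 2). It ranked 38th of all counted genes in replicate 2 and 26th in replicate 1. Replicate 2 was the lower library, with a log2 ratio of −0.35 (95% counting interval −0.38 to −0.33).

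Mir145a, made from the same region 1301 bases downstream on the same strand and known as the partner of Mir143 in smooth muscle, was far lower. It had 326 reads in replicate 2 and 354 in replicate 1, a mean of 97.9 ± 13.3 CPM (SD, n = 2). Mir143 exceeded it 73.5-fold in replicate 2 (exact 95% interval 65.9 to 82.3) and 77.7-fold in replicate 1 (70.0 to 86.5). The interval of each ratio holds the other library's value, so no difference in this proportion beyond counting error was seen between the pools. Such an overlap does not show that the proportion was the same. The log2 ratio between the libraries was −0.27 for Mir145a (−0.49 to −0.05), an interval that holds the value of Mir143. Its paralog Mir145b had 0 reads in both libraries.

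Mir214 was second in the set. Its gene (ENSMUSG00000065516.1, chr1:162223368-162223477, mm10, plus strand) lies in an exon of Dnm3os and, on the other strand, in an intron of Dnm3. It had 13278 reads in replicate 2 and 13641 in replicate 1, or 3606 CPM and 4136 CPM, a mean of 3871 ± 375 CPM (SD, n = 2). It held rank 52 in both libraries. The log2 ratio of replicate 2 over replicate 1 was −0.19 (−0.23 to −0.16), the smallest difference among the 6 genes.

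Mir140 followed. Its gene (ENSMUSG00000065439.1, chr8:107551244-107551313, mm10, plus strand) overlaps an annotated exon of Wwp2, a ubiquitin ligase gene, on the same strand. It had 11029 reads in replicate 2 and 11747 in replicate 1, or 2995 CPM and 3562 CPM, a mean of 3279 ± 401 CPM (SD, n = 2). It ranked 60th in replicate 2 and 54th in replicate 1. The log2 ratio was −0.25 (−0.28 to −0.21).

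Mir199b had the highest count of the 3 mir-199 genes and is the one whose 5p side has letters of its own. The gene (ENSMUSG00000092807.1, chr2:32318460-32318569, mm10, plus strand) lies in an intron of Dnm1, on the other strand. It had 1368 reads in replicate 2 and 1537 in replicate 1, or 371 CPM and 466 CPM, a mean of 419 ± 66.9 CPM (SD, n = 2). The log2 ratio was −0.32 (−0.43 to −0.22). The neighbouring gene Gm23363, 116 bases away on the same strand, had 3 reads in replicate 2 and 2 in replicate 1.

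Mir199a-2 lies 5444 bases upstream of Mir214 in an exon of the same Dnm3os transcript (ENSMUSG00000070126.1, chr1:162217814-162217923, mm10, plus strand). It had 147 reads in replicate 2 and 226 in replicate 1, or 39.9 CPM and 68.5 CPM, a mean of 54.2 ± 20.2 CPM (SD, n = 2). Mir214 thus had 90.3 reads per read of Mir199a-2 in replicate 2 (exact 95% interval 76.8 to 107) and 60.4 in replicate 1 (52.9 to 69.1). These intervals do not overlap. The log2 ratio between the libraries was −0.77 (−1.08 to −0.47) for Mir199a-2, outside the interval of Mir214 from the same transcript. The bases that tell Mir199a-2 from its copies lie outside both mature arms, and the part of this in the difference was not tested.

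Mir199a-1 had the lowest count. Its gene (ENSMUSG00000065547.1, chr9:21496495-21496564, mm10, minus strand) lies in an intron of Dnm2, on the other strand, so each of the 3 mir-199 genes lies opposite a gene of the dynamin family, which cut membrane vesicles free. It had 7 reads in replicate 2 and 17 in replicate 1, or 1.90 CPM and 5.15 CPM, a mean of 3.53 ± 2.30 CPM (SD, n = 2). It is the only one of the 6 genes with under 10 reads in a library. The log2 ratio of −1.38 has a wide counting interval (−2.95 to −0.09).

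Summed, the 3 mir-199 genes held 0.0413% of the gene-assigned reads in replicate 2 (95% Wilson interval 0.0393 to 0.0435%) and 0.0540% in replicate 1 (0.0515 to 0.0565%). Mir199b made up 89.9% of their reads in replicate 2 and 86.3% in replicate 1. Mir199a-2 made up 9.66% and 12.7% in the same order, and Mir199a-1 0.460% and 0.955%. The sum and these shares are of reads placed at a single locus. Both mature arms of Mir199a-1 and Mir199a-2 are shared with other loci, while Mir199b has a side that is not shared. Reads that map to several places are in no count. The values are therefore no measure of how much microRNA the family or each gene made. In the count column read here as antisense, none of the 6 genes had a read in either library. Reads on the strand of Dnm1, Dnm2 or Dnm3 hence do not enter these counts if that reading of the columns holds.

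**Figure D2:**
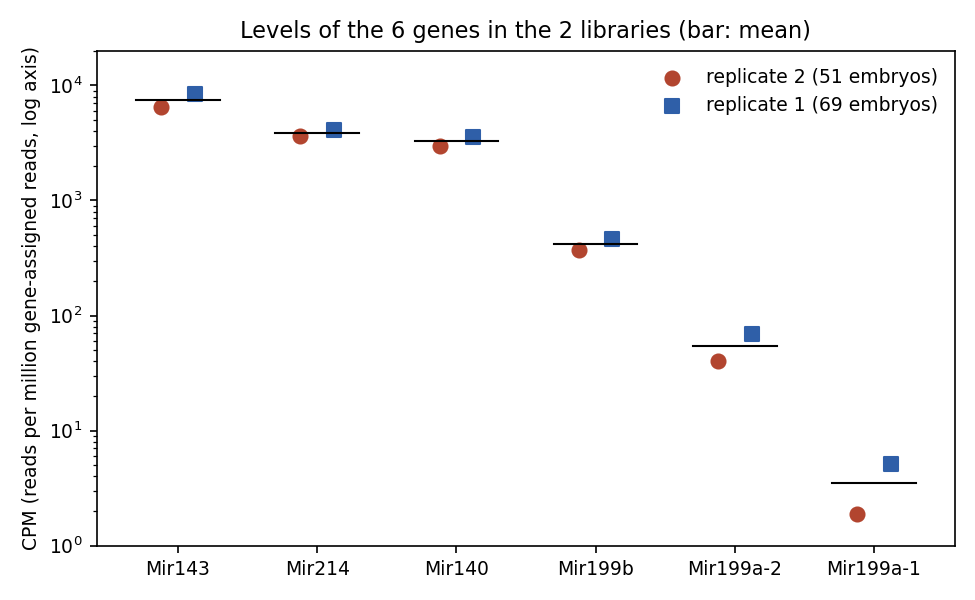
CPM of each gene on a log axis, with 1 point per library (red circles for replicate 2, blue squares for replicate 1) and a bar at the mean. Replicate 2 is the lower point for all 6 genes, and no gene's pair of points overlaps that of the next gene in the order.

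The order Mir143, Mir214, Mir140, Mir199b, Mir199a-2, Mir199a-1 held in both libraries, and the means span a 2105-fold range. For the mir-199 genes this is an order of reads placed at a single locus. Their reads that map to several places are in no count, so their places and steps are no measure of how much microRNA they made. Of neighbours in this order, Mir214 and Mir140 lay closest. The lowest value of Mir214, 3606 CPM, stood just above the highest of Mir140, 3562 CPM, and Mir214 exceeded Mir140 1.20-fold in replicate 2 and 1.16-fold in replicate 1. Mir143 exceeded Mir214 1.81-fold in replicate 2 and 2.02-fold in replicate 1. The step of Mir140 over Mir199b was 8.06-fold and 7.64-fold, in replicate 2 and replicate 1 in turn, and that of Mir199b over Mir199a-2 9.31-fold and 6.80-fold. With levels divided by precursor length, a setting added with these values in view, Mir140 stood above Mir214, at 4684 against 3519 CPM per 100 bases, and the other genes held their places.

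Replicate 2 was lower for all 6 genes. A two-sided exact binomial test on TMM-scaled library sizes, with Benjamini-Hochberg adjustment over 485 tested genes, called 6 of the 6 lower in replicate 2. It compares the reads of 2 libraries and not conditions. Of all tested genes it called 26.6% lower and 49.7% in either direction. Of the 107 genes that averaged at least 1000 CPM it called 95.3% in either direction and 44.9% lower, so a call was the common outcome for genes as deep as Mir143, Mir214 and Mir140. The adjusted p was 4.8e-168 for Mir143, 3.0e-27 for Mir214 and 8.7e-37 for Mir140. It was 7.4e-09 for Mir199b, 1.2e-06 for Mir199a-2 and 0.049 for Mir199a-1, by the same binomial test.

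The sizes of these differences were modest for the deeper genes. Mir143, Mir214, Mir140 and Mir199b had 0.783, 0.875, 0.844 and 0.800 times the scaled level of replicate 1 in replicate 2, and Mir199a-2 had 0.585 times. The median log2 ratio over the 6 genes was −0.34, against −0.02 over all genes tested. The middle 50% of the ratios of genes at 1000 CPM or more ran from −0.24 to 0.21. Mir214 lay inside that range, Mir140 just below its lower end and Mir143 further below it. With DESeq2 size factors the test called 5 of the 6 genes, as the adjusted p of Mir199a-1 was then 0.075.

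**Figure D3:**
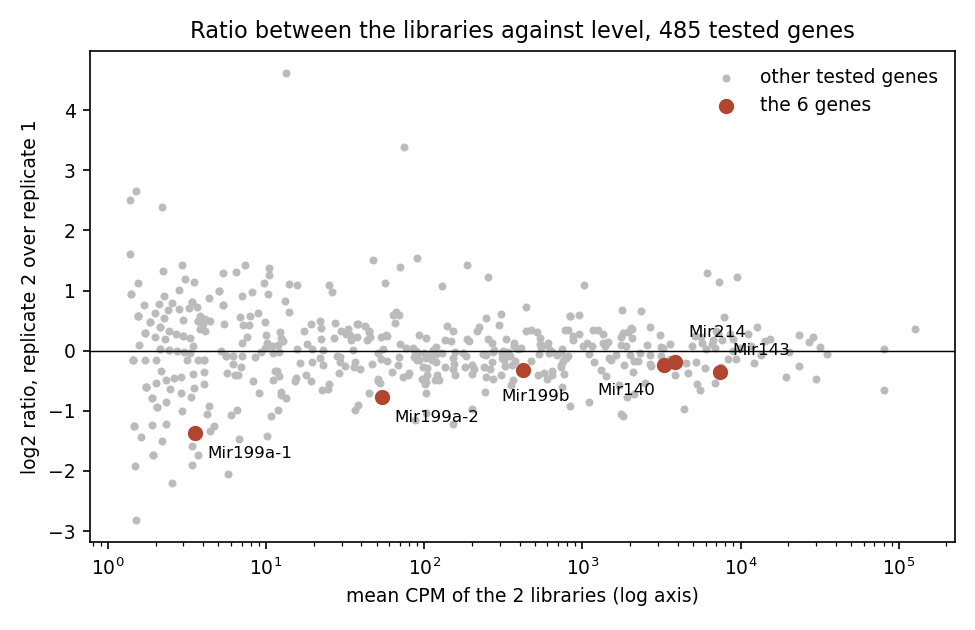
Log2 ratio of replicate 2 over replicate 1 against mean CPM (log axis) for the 485 tested genes, with the 6 genes in red. All 6 lie below 0, between −0.19 for Mir214 and −1.38 for Mir199a-1, and within the spread of other genes of like level.

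A list of 13 other microRNAs associated with mesenchyme held 1.45% of the gene-assigned reads in replicate 2 and 1.64% in replicate 1. Of its 10 tested genes, the binomial test called 3 lower and 1 higher in replicate 2, against 26.6% lower and 23.1% higher of all tested genes, so the share called lower was near the background. In the list 3 genes, Mir145b among them, had 0 reads in both libraries. The median log2 ratio of the 10 was −0.08. The 3 called lower were Mir21a, Mir22 and Mir145a. Mir21a, known from fibroblasts and many other cells, had 6570 CPM in replicate 2 and 8545 CPM in replicate 1, with a log2 ratio of −0.37. Mir22 had 2458 CPM in replicate 2 and 2937 CPM in replicate 1, with a log2 ratio of −0.25.

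Mir708 was the gene called higher, at 3383 CPM in replicate 2 and 2825 CPM in replicate 1 (log2 ratio 0.26), and it shares sequence with another locus. Mir455, a cartilage microRNA that lies in an intron of a collagen gene, had 611 CPM in replicate 2 and 575 CPM in replicate 1. Its log2 ratio of 0.09 did not pass the test (adjusted p = 0.084, binomial test). Its counting interval, 0.002 to 0.18, lies above that of Mir140, the other cartilage microRNA. Mir34c, Mir224, Mir152, Mir675 and Mir34b did not pass either, with log2 ratios from −0.18 for Mir224 to 0.24 for Mir675. Their mean levels ran from 37.5 CPM for Mir34b to 1101 CPM for Mir34c.

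**Figure D4:**
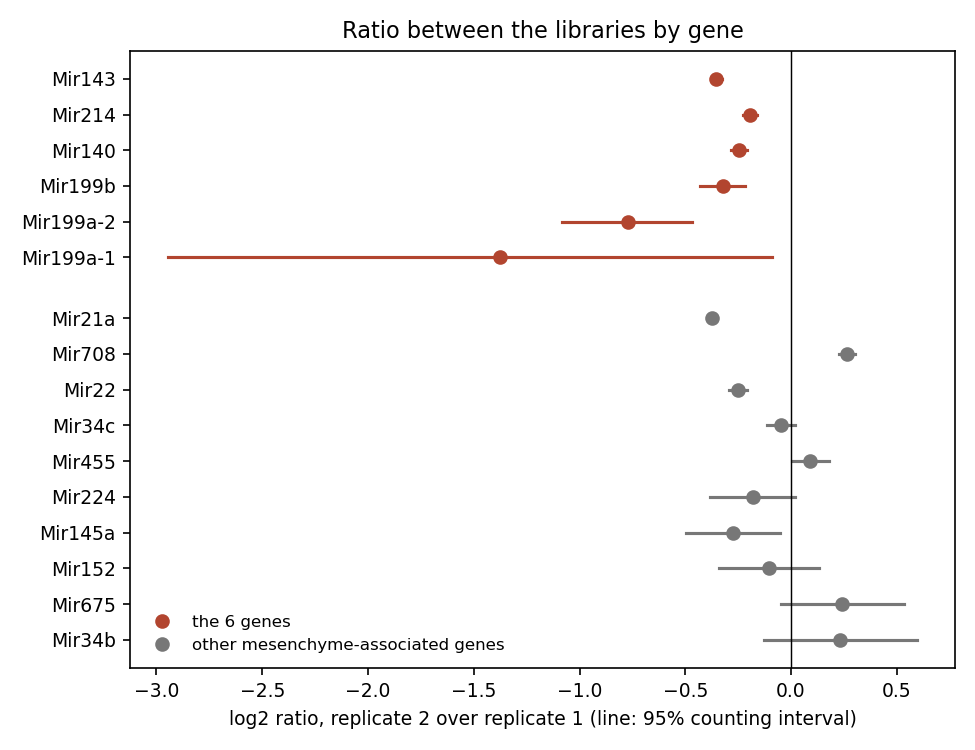
Log2 ratio of replicate 2 over replicate 1 with its 95% counting interval (line) for the 6 genes in red and 10 other mesenchyme-associated genes in grey. The intervals of the 6 genes lie below 0, as do those of Mir21a, Mir22 and Mir145a, while those of Mir708 and, narrowly, Mir455 lie above 0.

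Markers of other tissues differed between the libraries too, and their part in the values above was not tested. The endothelial microRNA Mir126a had 30780 CPM in replicate 2 and 26450 CPM in replicate 1, against which Mir143 stood at 0.211 and 0.315 times in turn. Of all 485 tested genes the binomial test called 23.1% higher and 26.6% lower in replicate 2, beside which the calls below are read. The 8 neural genes of the neural progenitor list held 3.33% in replicate 2 and 2.79% in replicate 1. Most of this was Mir92b, with 25352.4 CPM in replicate 2 and 21245.5 CPM in replicate 1. Of 6 tested genes of the list, 3 were called higher and 2 lower. The higher ones were Mir92b, Mir219a-1 and Mir219a-2, while Mir9-3 (log2 ratio −1.03) and Mir124a-2 (−0.78) were the lower ones. The 7 epithelial genes, led by Mir205, held 0.409% in replicate 2 and 0.340% in replicate 1, with 5 of 7 called higher and 2 lower. The 6 Hox-embedded genes, of tissue behind the midbrain and led by Mir10a, held 0.0395% in replicate 2 and 0.0162% in replicate 1, with 4 of 5 tested called higher and Mir196a-1 at 0 reads.

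Muscle and blood lists each held a smaller share of the counted reads than the 6 genes together. The 8 heart and skeletal muscle genes held 0.00665% in replicate 2 and 0.00552% in replicate 1, with 1 of 4 tested called higher. Mir208b was their most abundant at 33.9 ± 4.24 CPM (SD, n = 2), and Mir1a-1, Mir133a-1, Mir133a-2 and Mir133b were at 0 reads, all 4 of which share sequence with other loci. The 3 erythroid genes, led by Mir451a, held 0.0374% in replicate 2 and 0.0404% in replicate 1. Mir451a was called lower (log2 ratio −0.26), while the less abundant Mir144 (0.45) and Mir486 (0.98) were called higher. The 4 leukocyte genes held 0.145% in replicate 2 and 0.128% in replicate 1, with 1 of 4 called higher, and were led by Mir142b, all of whose reads were in the antisense column. The liver microRNA Mir122 had 56 reads in replicate 2 and 19 in replicate 1.

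**Figure D5:**
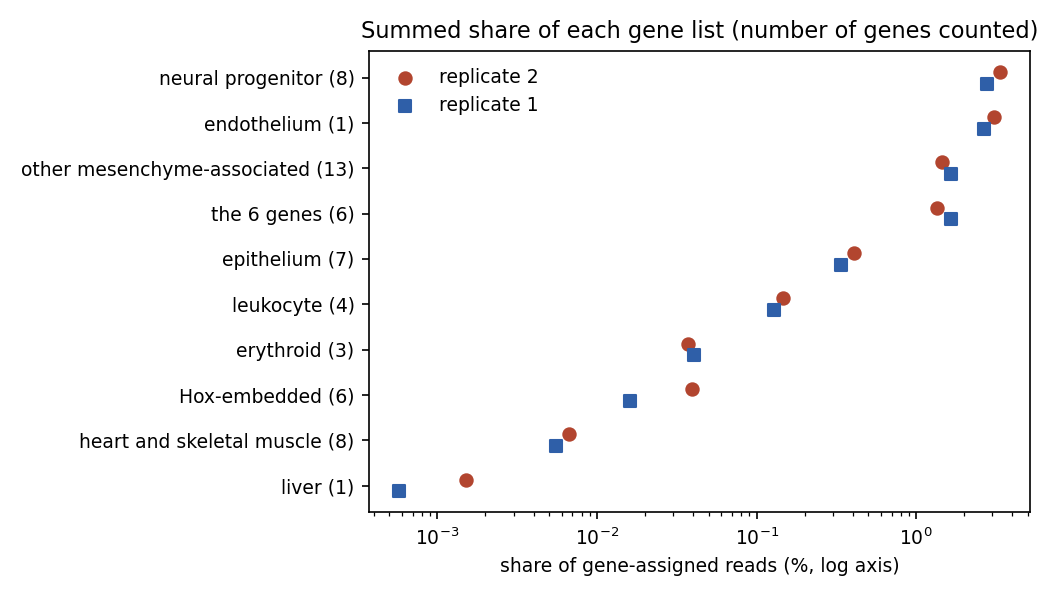
Summed share of gene-assigned reads (log axis, in %) of the 6 genes and 9 other lists, with red circles for replicate 2, blue squares for replicate 1 and the number of counted genes in parentheses. The 6 genes, at 1.35% and 1.66%, lie below the neural progenitor list and Mir126a and above the epithelial, blood, Hox-embedded, muscle and liver lists in both libraries.

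Genes with levels most like those of the 6 were sought by the distance of log2 CPM over the 2 libraries, among 333 other genes of mean CPM 10 or more. With only 2 libraries this measures a like level and a like difference between the pools and no more. Mir21a lay nearest to Mir143 at a distance of 0.04 log2 units, followed by Mir342 at 0.07. Mir324 lay nearest to Mir140 (0.05), then Mir16-1 (0.13), and Mir541 (0.15) and Mir23a (0.16) to Mir214. Mir376c (0.24) and Mir1251 (0.26) were nearest to Mir199b, and Mir194-2 (0.16) and Mir200a (0.20) to Mir199a-2. For Mir199a-1, itself below 10 CPM, Mir448 (2.09) and Mir383 (2.30) were nearest and were not alike in level.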

How the data were processed

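The values are raw read counts per microRNA gene as deposited, 1 file per library. Reads were aligned to mm10 and counted on GENCODE M4, per the file headers in the deposited description. The choice of aligner and the trimming of adapters were not given in the sources used here. Of 3 unnamed count columns the first, the sum of the other 2, was used. The column with 97.3% (replicate 2) and 97.4% (replicate 1) of gene-assigned reads was taken as the gene's strand. The 4 rows that name no gene were left out of library sizes; they hold 60.9% of all reads in replicate 2 and 57.8% in replicate 1. Identifiers were matched without version to GENCODE M21 (GRCm38, 1894 of 1973 matched), coordinates are 1-based, and sequences come from RefSeq (GRCm38.p6).

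CPM, means and SDs were computed. Log2 ratios used 0.5 added reads and TMM scaling (edgeR 4.0.16). The exact binomial test took genes with at least 10 reads in sum, at an adjusted p of 0.05, and was tested on simulated data. The simulated counts had counting error alone and no variation between pools, so they do not show how the test behaves on real pools. Counting intervals of ratios are exact at 95%. edgeR's quasi-likelihood test was not used, since a comparison of 1 library with 1 leaves no residual degrees of freedom. Alternatives were DESeq2 1.42.0 size factors, total counts, other filters and denominators, the strand column, 2 added reads, single libraries, and leaving out Mir335, which has the highest level, or 929 genes with 20 bases found at another locus. Named genes are the 6 genes, microRNA genes within 10 kb, genes of the mesenchyme list with 10 or more reads in each library, the most abundant marker of each tissue and the 2 genes nearest in level to each. Mir9-3, Mir124a-2, Mir219a-1, Mir219a-2, Mir144, Mir486 and the genes named at 0 reads or for a shared seed were added after their values were seen. The members and lists were chosen with earlier results of these data known. Python 3.11.15, scipy 1.17.1 and R 4.3.3 were used.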

Additional observations from a re-analysis of the deposited data

How the results depend on the processing

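No paired analysis was possible because the series has 1 group. The 6 genes held 0.614% of all reads in the files, 1.72% of gene-assigned reads without Mir335, and 1.35 to 1.66% in single libraries, against a mean of 1.51%. Both shifts follow from the denominator. Without genes that share 20 bases, 3 of the 6 genes remain, Mir143, Mir214 and Mir140, and the test called all 3 lower in replicate 2. Division by precursor length exchanged the places of 2 genes, Mir214 and Mir140. Of 33 log2 ratios of the 6 genes under 6 alternatives, none changed sign and 32 stayed on their side of the threshold, and they ran from −1.38 to −0.16. The exception was Mir199a-1 with DESeq2 size factors, and its adjusted p by the binomial test ran from 0.049 to 0.075 over these alternatives. The 2 added reads enter the ratios and not the test, so no gene could change side in that setting. With no filter beyond 1 read the test called 5 of the 6 genes, and with a mean CPM of at least 10 it called all 5 genes tested, as Mir199a-1 fell below that level. Depth limits Mir199a-1, with 7 and 17 reads, and shared sequence limits all 3 mir-199 genes.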
